A study of Mus musculus with 12 samples.

Results

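The HoxC cluster on mouse chromosome 15 holds 9 genes, Hoxc4, Hoxc5, Hoxc6, Hoxc8, Hoxc9, Hoxc10, Hoxc11, Hoxc12 and Hoxc13, among 21000 genes with a curated RefSeq transcript. Their chromatin contacts were taken from all 6 interaction tables of the series by keeping every interaction with an anchor that overlaps chr15:102917000-103040000 of mm10 and with its partner in chr15:101900000-104043685. An interaction anchor is a stretch between restriction sites in which read ends pile up, and the score of an interaction is the number of read pairs that join 2 anchors, or that lie inside 1 anchor. The rule found 983 of 10267665 interactions in ESC Hi-C and 992 of 10741787 in NCC Hi-C. It found 261 of 1930320 in ESC FGFR1 HiChIP and 281 of 2401031 in NCC FGFR1 HiChIP, and 103 of 887334 and 137 of 847981 in CTCF HiChIP. Each anchor was assigned to the HoxC gene whose body lies nearest to its midpoint.

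The study compared E14Tg2A embryonic stem cells (ESC), kept on gelatin with LIF at 100 U/mL, with neuronal committed cells (NCC), which are the same cells after 48 h in medium without LIF and with 1 μM retinoic acid. All cells were fixed with formaldehyde. Hi-C joins any DNA ends that lie close together, while HiChIP enriches those joined near a protein, here FGFR1, a growth factor receptor that is also found in the nucleus, or CTCF, the zinc-finger protein found at many loop and domain borders. Every table is 1 pooled library of 2 biological replicates of a single cell line, so no spread between replicates can be given, and each test compares pooled libraries and not the conditions. RNA was not measured in these tables, so the identity of ESC and NCC could not be checked against marker genes.

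Hox genes encode homeodomain transcription factors that give cells their position along the body axis. Within a cluster all genes are read in the same direction, and the genes at its 3′ end are active earlier and further toward the head than those at its 5′ end. Retinoic acid switches on Hox genes in this order, and in stem cells the silent clusters are covered by Polycomb proteins. All 9 HoxC genes lie on the plus strand, from Hoxc13 at the 5′ end (gene body chr15:102921131-102928814) to Hoxc4 at the 3′ end (chr15:103034395-103036852). The flank beyond Hoxc13 is called the left flank here and reaches 1017 kb. The flank beyond Hoxc4 is called the right flank and stops at the end of the chromosome sequence after 1003.685 kb.

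The sequence of the window was searched on both strands for the core consensus of CTCF, with 1 mismatch allowed, and for a pair of retinoic acid receptor sites in the spacing of a DR5 element, because both the CTCF libraries and the retinoic acid treatment bear on these genes. No exact CTCF consensus was found, and 6 stretches matched with 1 mismatch. Each is shown 5′ to 3′ on the strand that carries the match, from the GRCm38 (mm10) sequence, with the matching bases in capitals.
Hoxc12 side, minus strand, chr15:102943449-102943478: ccgctctggCCAGCAGGGGTCatcccgtcc
Hoxc11, plus strand, chr15:102955196-102955225: gagccgcccCCAGTAGGTAGCagcggccgg
Hoxc10, plus strand, chr15:102969135-102969164: agactttgaCCAGAAGATGGCcgtggctgt
Hoxc9 side, minus strand, chr15:102985715-102985744: gtcctacagCCACCAGAGAGCaccccattc
Hoxc6, plus strand, chr15:103009790-103009819: tgttcagttCCAGCCGGGGGCcgtatgact
Hoxc6, plus strand, chr15:103011410-103011439: ctggggcctCCACTCGGGGGCctcagggcc
The matches at Hoxc11, Hoxc10 and Hoxc6 lie inside the gene bodies, and those on the Hoxc12 and Hoxc9 sides lie 4.85 kb and 1.28 kb beyond them. Such letters are common, since 24.3% of 38790 windows of 3 kb in anchors of chromosome 15 hold a match with at most 1 mismatch, against 12 of 68 such windows (17.6%) in the HoxC cluster. The matches at Hoxc11 and on the Hoxc9 side lie in anchors of all 6 tables. The 2 matches at Hoxc6 differ in the CTCF libraries, because the match 0.237 kb past the start site lies in a CTCF anchor of NCC and in none of ESC, while the match at 1.86 kb lies in a CTCF anchor of ESC and in none of NCC.

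The DR5 search found 2 stretches, shown with both receptor sites of the pair in capitals, because NCC were made with retinoic acid, whose receptors bind such pairs.
Upstream of Hoxc11, plus strand, chr15:102947225-102947254: agagtgAGGTGAaagagAGTTGAgagaaag
Upstream of Hoxc4, plus strand, chr15:103029354-103029383: cacccgAGGTGAaatgcAGGTCActctgtc
The first lies 7.30 kb before the Hoxc11 start site, in an anchor of NCC Hi-C and of ESC CTCF HiChIP. The other lies 5.04 kb before the Hoxc4 start site and in no anchor of the 6 tables. A DR5 match was found in 3.53% of the windows on chromosome 15 and in 2 of 68 HoxC windows (2.94%). A match is a likeness of letters, and binding was not measured at these bases.

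The HoxC genes kept the same number of Hi-C contacts in NCC as in ESC to within counting error, but the contacts pointed elsewhere. The genes touched each other less, with the lowest ratios between anchors farthest apart, and the Hoxc4 end touched the right flank more. Hi-C held 4408 HoxC read pairs in ESC and 4478 in NCC. Scaled to the table totals of 20790622 and 21279750 read pairs, the NCC level was 0.993 times that of ESC (95% interval 0.952 to 1.03). Intervals are exact for the ratio of 2 counts, and they cover counting error only, since the 2 replicates of each table were merged. The study's methods name a removal of duplicate reads, and any copies left after it are not covered.

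Contacts between different anchors of the cluster numbered 1311 read pairs in ESC Hi-C and 981 in NCC, a ratio of 0.731 (0.672 to 0.795). Read pairs inside a single anchor went from 835 to 768, a ratio of 0.899 (0.814 to 0.992). Contacts to the left flank numbered 843 and 886, with a ratio of 1.03 (0.933 to 1.13). Those to the right flank numbered 1419 and 1843, a ratio of 1.27 (1.18 to 1.36). The intervals of the inside and right-flank ratios lie on opposite sides of 1, and the ratio between them was 0.576 (0.517 to 0.642). Without the 3 anchors of each table that hold the most ends, the ratio inside the cluster was 1.11 (0.948 to 1.3). It was 0.934 (0.780 to 1.12) without the 3 strongest joined anchors. Summed over all distances, the lower level was thus not seen apart from those few large anchors. The contacts that remain mix near and far pairs and were not split by distance. The right-flank ratio was 1.63 without the 3 anchors with the most ends, and 1.29 (1.15 to 1.44) without the 3 strongest joined anchors. The anchors with the most ends are not the same stretches in both cell types. NCC keeps chr15:102983914-102993647, most of which lies in a dropped anchor in ESC, so the joined anchors give the like comparison.

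With all anchors counted, FGFR1 HiChIP gave a similar division of contacts from far fewer read pairs. Its HoxC read pairs numbered 433 in ESC and 524 in NCC, with a scaled ratio of 1.00 (0.882 to 1.14). Contacts between HoxC anchors numbered 152 and 121, a ratio of 0.660 (0.515 to 0.843). Contacts to the left flank numbered 91 and 100, a ratio of 0.911 (0.679 to 1.22), and those to the right flank numbered 120 and 184, a ratio of 1.27 (1.00 to 1.61). Within the FGFR1 libraries the inside and right-flank ratios again stood apart, with a ratio between them of 0.519 (0.373 to 0.723). Read pairs inside a single FGFR1 anchor numbered 70 and 119, a ratio of 1.41 (1.04 to 1.92), which exceeded the Hi-C ratio for the same class by 1.57 times (1.15 to 2.14). Of the NCC count, 44 lay in 1 anchor over Hoxc9 that was called as 3 anchors in ESC. With these ESC anchors joined, the stretch held 14 and 44. Another 17 lay at chr15:102942241-102944825, which has no FGFR1 anchor in ESC. The part of anchor calling in this ratio was not tested. The right-flank ratio was 0.982 without the 3 FGFR1 anchors with the most ends, which are not the same stretches in ESC and NCC. Where only joined anchors with an anchor in both FGFR1 tables were kept, the ratio within the cluster was 0.469 (0.353 to 0.619). To the left flank it was then 0.711 (0.518 to 0.972), and to the right flank 1.16 with an interval that spans 1 (0.913 to 1.48).

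CTCF HiChIP differed from the other assays in that the whole cluster held more read pairs in NCC. It counted 149 HoxC read pairs in ESC and 214 in NCC, a scaled ratio of 1.65 (1.33 to 2.05). The right flank had 43 and 76 read pairs, a ratio of 2.03 (1.38 to 3.03), the left flank 31 and 44, a ratio of 1.63 (1.01 to 2.67), and the cluster itself 42 and 52, a ratio of 1.42 (0.93 to 2.19). The CTCF ratio for all HoxC contacts was 1.66 times (1.35 to 2.06) the Hi-C ratio. Where only joined anchors with an anchor in both CTCF tables were kept, each of these 3 classes had an interval that spans 1, with ratios of 1.06 within the cluster (0.584 to 1.92), 1.58 to the left flank (0.907 to 2.80) and 1.52 to the right flank (0.954 to 2.45). Of the CTCF interactions at HoxC, 81.6% in ESC and 70.1% in NCC had a score of 1.

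**Figure D1:**
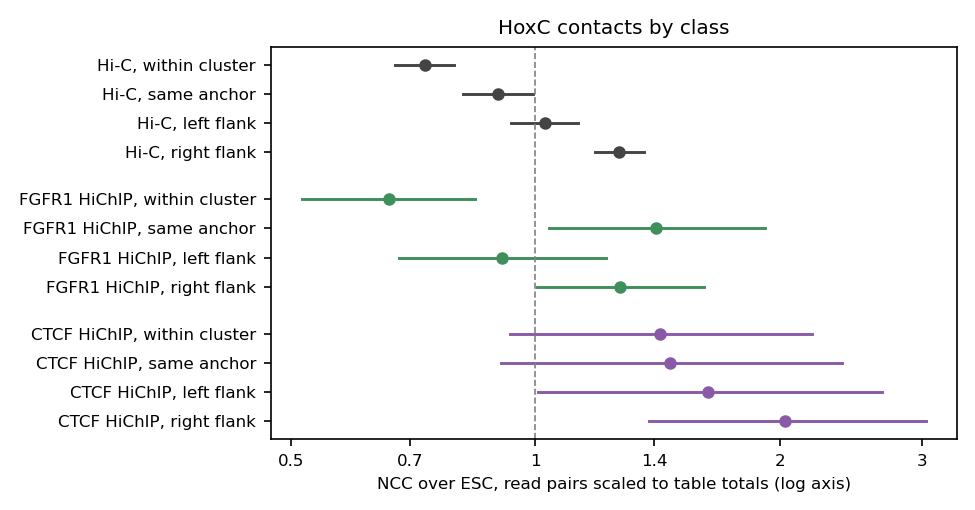
HoxC contacts in NCC over ESC by class, for Hi-C, FGFR1 HiChIP and CTCF HiChIP, as the ratio of read pairs scaled to the table totals (log axis), with points for the ratio and lines for the exact 95% interval. In Hi-C and FGFR1 HiChIP the contacts within the cluster lie below 1 (0.731 and 0.660) and those to the right flank above 1 (1.27 in both), while all 4 CTCF classes lie above 1.

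Set against Hi-C by the share of all read pairs, neither HiChIP was enriched at the cluster. HiChIP anchors covered less of the window, with 46.7 kb in ESC and 54.15 kb in NCC for FGFR1. For CTCF they covered 32.2 and 35.4 kb, and in Hi-C 79.2 and 84.6 kb. Levels per kb of anchor were not compared. Scaled to the table totals, FGFR1 HoxC read pairs were 0.762 times those of Hi-C in ESC (0.689 to 0.842) and 0.770 times in NCC (0.702 to 0.844). CTCF read pairs were 0.573 times those of Hi-C in ESC (0.484 to 0.675) and 0.954 times in NCC (0.828 to 1.09). In ESC the CTCF level was thus below that of Hi-C, and in NCC its interval reached 1. Of every 1000000 read pairs in a table, 212 in ESC and 210 in NCC were HoxC read pairs in Hi-C, 162 in both cell types in FGFR1 HiChIP, and 122 and 201 in CTCF HiChIP.

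In Hi-C a large share of these contacts lay in a few long anchors. The HoxC window held 14 Hi-C anchors in each cell type, 15 and 16 FGFR1 anchors, and 12 and 14 CTCF anchors. In ESC Hi-C the strongest anchor ran over 20.9 kb at chr15:102971039-102991889, through the end of Hoxc10, all of Hoxc9, a gene of the thoracic level, and into Hoxc8. It held 1588 of the 6554 ends in the window, or 24.2%. The next anchor, chr15:102953122-102969961, covers Hoxc11 and part of Hoxc10, genes of the lumbar level, and held 1198 ends. The anchor at chr15:103009187-103016992 over Hoxc6 and Hoxc5 held 953. These 3 anchors together held 57.0% of the ends on 57.5% of the anchor length, so their share matched their length.

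In NCC Hi-C the order was different, with the anchor over Hoxc6 and Hoxc5 now first. This anchor, chr15:103008534-103016992, held 1120 of 6227 ends (18.0%), followed by the Hoxc11 and Hoxc10 anchor with 910 and the Hoxc9 anchor chr15:102971039-102982878 with 730. The 20.9 kb ESC anchor was called as 2 anchors in NCC, of which the other, chr15:102983914-102993647, reaches Hoxc8. The 3 strongest NCC anchors held 44.3% of the ends on 43.9% of the anchor length.

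FGFR1 ends were spread more evenly in ESC, where the first anchor, chr15:103006894-103010725 at the Hoxc6 start site, held 82 of 655 ends (12.5%). An anchor beyond Hoxc8 followed with 76 ends and one over Hoxc11 with 74. In NCC a single anchor of 13.4 kb over Hoxc9, chr15:102976590-102989997, held 190 of 764 ends (24.9%, interval 21.8 to 28.1), and the next, over Hoxc5, held 73. The same stretch carried 3 separate anchors in ESC.

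CTCF ends in ESC were highest in the Hoxc11 anchor chr15:102953122-102957114, with 43 of 224 ends (19.2%), which holds the Hoxc11 match shown above. The anchor chr15:103010885-103015367 over the end of Hoxc6 and the start of Hoxc5 held 39. In NCC the first was chr15:102983914-102989997, downstream of Hoxc9, with 44 of 308 ends (14.3%), and it holds the minus-strand match. A 1.43 kb anchor at the Hoxc6 start site, chr15:103008939-103010372, followed with 35 ends, or 24.4 per kb. It holds the first Hoxc6 match and overlaps no CTCF anchor of ESC.

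Because anchors were called in each table on its own, anchors of ESC and NCC that overlap were joined and numbered from left to right for comparison. Hi-C gave 14 joined anchors, and 13 of them had an anchor in both cell types. The exception, number 10, chr15:103004259-103006894 before Hoxc6, held 188 read pairs in ESC and no anchor in NCC. Joined anchors can hold more than 1 gene, since Hoxc11 with Hoxc10, Hoxc9 with Hoxc8 and Hoxc6 with Hoxc5 share anchors.

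In Hi-C, 10 of the 13 joined anchors had a ratio below 1 for contacts with the rest of the cluster, and for 8 of them the upper end of the interval was below 1. The Hoxc11 and Hoxc10 anchor (number 7) went from 458 to 265 read pairs, a ratio of 0.565 (0.484 to 0.659). The anchor over Hoxc10, Hoxc9 and Hoxc8 (number 8) went from 558 to 356, a ratio of 0.623 (0.544 to 0.713). The anchor over Hoxc6 and Hoxc5 (number 11), genes of the neck and upper trunk, went from 361 to 255, a ratio of 0.690 (0.586 to 0.812). The Hoxc4 anchor (number 14) went from 112 to 91, a ratio of 0.794 with an interval that spans 1 (0.595 to 1.06). Only numbers 3 and 6 had a lower end above 1, at 1.44 and 1.64, and both were more than 2 times as long in NCC (5.44 against 2.14 kb, and 3.23 against 1.34 kb).

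To the right flank, 5 of the 13 joined anchors had an interval above 1 and none had one below 1. Number 11, over Hoxc6 and Hoxc5, went from 221 to 404 read pairs, a ratio of 1.79 (1.51 to 2.11). The Hoxc4 anchor went from 96 to 174, a ratio of 1.77 (1.37 to 2.30). Number 12, between Hoxc5 and Hoxc4, went from 62 to 91, a ratio of 1.43 (1.03 to 2.01). Number 8 went from 379 to 485, a ratio of 1.25 (1.09 to 1.43), and number 3, with its longer NCC anchor, from 25 to 51. The Hoxc11 and Hoxc10 anchor had 220 and 231 right-flank read pairs, a ratio of 1.03 (0.849 to 1.24). Its interval does not overlap that of Hoxc6 and Hoxc5.

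**Figure D2:**
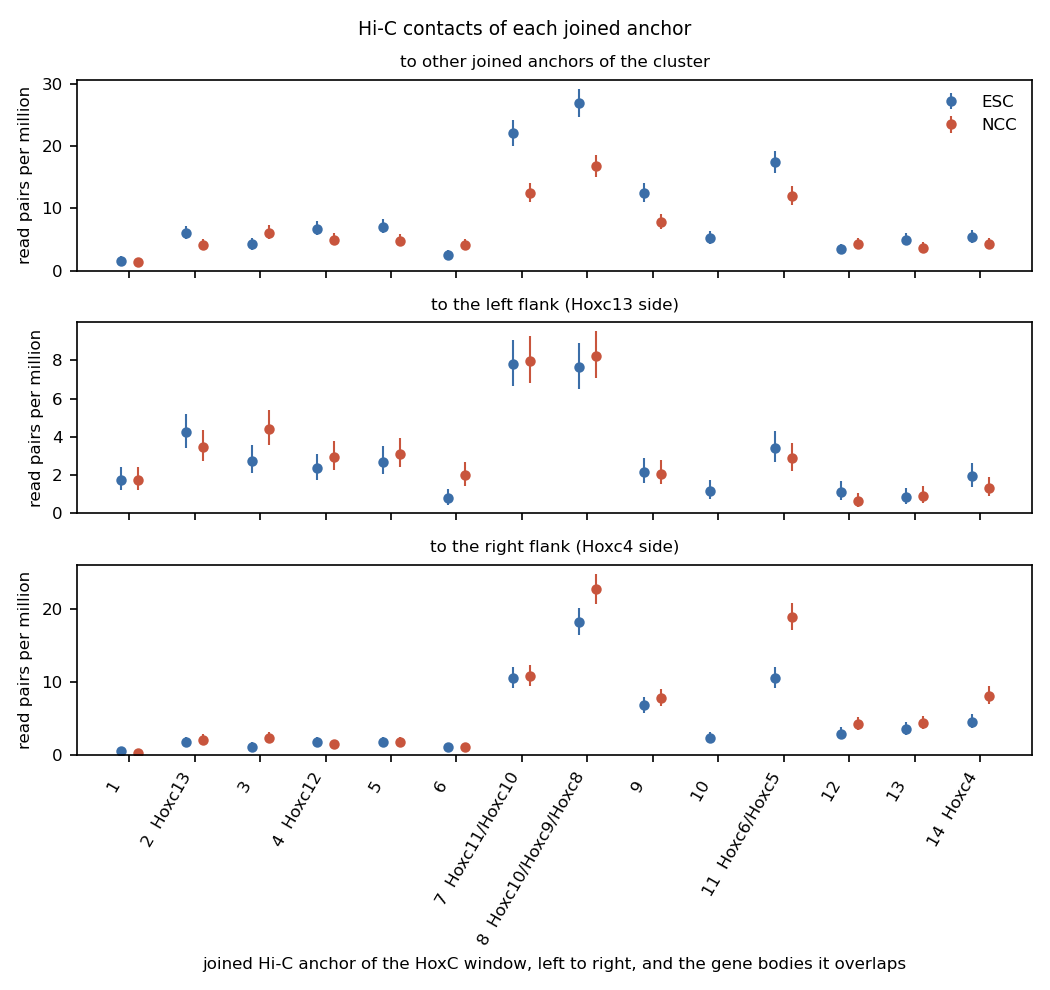
Hi-C read pairs per 1000000 for each of the 14 joined anchors of the HoxC window, numbered from left to right with the gene bodies they overlap, to the other joined anchors (top), to the left flank (middle) and to the right flank (bottom), with exact Poisson 95% intervals. Inside the cluster the anchors of Hoxc11/Hoxc10, Hoxc10/Hoxc9/Hoxc8 and Hoxc6/Hoxc5 are lower in NCC, and to the right flank those of Hoxc6/Hoxc5 and Hoxc4 are higher.

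Across all contacts of a joined anchor, a two-sided exact binomial test with Benjamini-Hochberg adjustment over all joined anchors of the genome called a difference at an adjusted p under 0.05 and a ratio of at least 1.5. Of 13 HoxC joined anchors tested in Hi-C, 2 were called, both higher in NCC, against 28.3% of all joined anchors called. They were numbers 3 and 6, whose NCC anchors are longer. In FGFR1 HiChIP 4 of 10 were called, all lower in NCC, against 29.3% of all. They lie at Hoxc12 (43 and 18 read pairs, ratio 0.347), at Hoxc11 (64 and 45, ratio 0.583), beyond Hoxc8 (68 and 41, ratio 0.50) and at Hoxc6 (70 and 36, ratio 0.426), and in all 4 the NCC anchor is the shorter one. In CTCF HiChIP 1 of 3 was called, against 20.0% of all, namely the anchor downstream of Hoxc9 with 16 and 35 read pairs, a ratio of 2.52 (1.36 to 4.87), which is 6.08 kb long in NCC and 2.72 kb in ESC. The part of anchor length in these calls was not tested.

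The lower contact inside the cluster was larger the farther apart the anchors lay. Between joined anchors under 20 kb apart, Hi-C held 358 read pairs in ESC and 433 in NCC, a ratio of 1.18 (1.02 to 1.36). This range takes in the pairs of numbers 3 and 6, whose NCC anchors are longer. Among them were numbers 6 and 7 (14 and 35 read pairs) and 2 and 3 (13 and 24). Numbers 1 and 3 (4 and 2) and 4 and 6 (8 and 5) went the other way. The part of anchor length in this ratio was not tested. From 20 to 40 kb the counts were 499 and 331, a ratio of 0.648 (0.562 to 0.746), and from 40 to 80 kb they were 297 and 144, a ratio of 0.474 (0.385 to 0.580). From 80 kb to the full reach of the cluster they were 47 and 16, a ratio of 0.333 (0.176 to 0.597). Over the whole Hi-C table the same 4 ranges had ratios of 1.00, 0.994, 0.985 and 0.980, and no such step with distance was seen there.

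In read pairs, the largest difference between joined anchors was that of the neighbours in the middle of the cluster, while pairs with fewer read pairs had lower ratios. The joined anchors of Hoxc11/Hoxc10 and Hoxc10/Hoxc9/Hoxc8 shared 189 read pairs in ESC, the strongest interaction of the cluster, and 89 in NCC, a ratio of 0.460 (0.353 to 0.595). Hoxc11/Hoxc10 and Hoxc6/Hoxc5 shared 69 and 22, a ratio of 0.312 (0.184 to 0.510). By contrast, Hoxc10/Hoxc9/Hoxc8 and Hoxc6/Hoxc5 shared 107 and 82, a ratio of 0.749 whose interval reached 1.01. The 3′ end of the cluster went the other way at short range. The Hoxc6/Hoxc5 anchor and its right neighbour shared 17 and 39 read pairs, a ratio of 2.24 (1.24 to 4.23). Read pairs inside the Hoxc6/Hoxc5 anchor numbered 150 and 200, a ratio of 1.3 (1.05 to 1.62). Both anchors are longer in NCC, the right neighbour at 2.56 against 1.785 kb, and the part of this was not tested. Of the 10 pairs of joined anchors with at least 50 read pairs, 9 had a ratio below 1, 3 of them with the upper end of the interval below 1, and 1 pair had its lower end above 1.

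**Figure D3:**
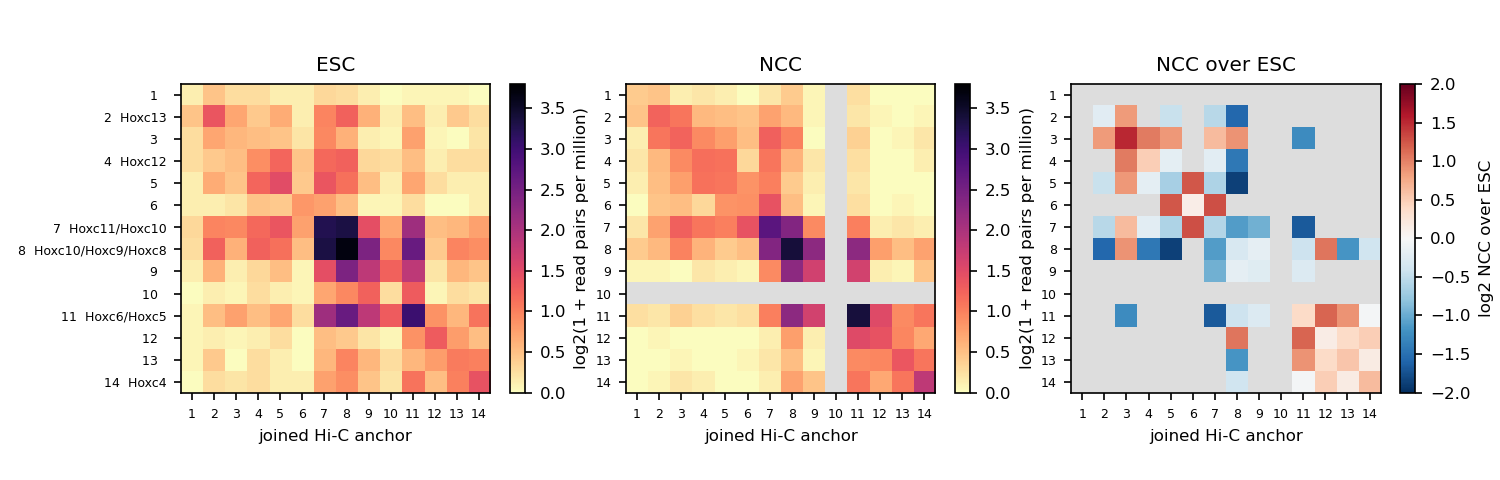
Hi-C read pairs per 1000000 between the 14 joined anchors of the HoxC window in ESC and NCC (log2 of 1 plus the value) and the log2 ratio of NCC over ESC, with grey where number 10 has no anchor in NCC or where a pair held under 20 read pairs in sum and no ratio was drawn. The dark block of Hoxc11/Hoxc10 with Hoxc10/Hoxc9/Hoxc8 in ESC (189 read pairs) is fainter in NCC (89), and at the lower right the pairs from Hoxc6/Hoxc5 to Hoxc4 are level or higher in NCC.

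The higher contact with the right flank was in its first 200 kb. Within 50 kb of the window Hi-C counted 212 read pairs in ESC and 364 in NCC, a ratio of 1.68 (1.41 to 2.0). From 50 to 100 kb the counts were 276 and 430, a ratio of 1.52 (1.31 to 1.78), and from 100 to 200 kb they were 565 and 683, a ratio of 1.18 (1.05 to 1.32). From 200 to 400 kb the ratio was 1.00 (0.860 to 1.17). FGFR1 HiChIP had 20 and 44 read pairs within 50 kb, a ratio of 1.82 (1.05 to 3.27), and 19 and 47 from 50 to 100 kb, a ratio of 2.05 (1.18 to 3.70). On the left flank no Hi-C range below 600 kb had an interval that left out 1, and beyond 600 kb there were 85 and 61 read pairs, a ratio of 0.701 (0.496 to 0.986).

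**Figure D4:**
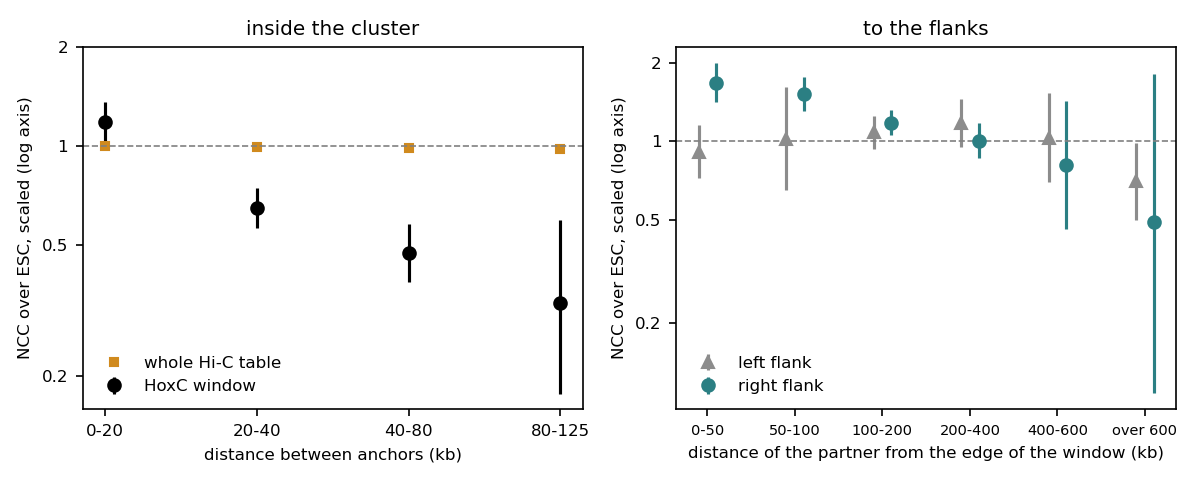
Scaled Hi-C ratio of NCC over ESC (log axis) with exact 95% intervals, by the distance between joined anchors inside the HoxC window (left panel, with the whole Hi-C table as squares) and by the distance of the partner from the edge of the window on each flank (right panel). Inside the cluster the ratio goes from 1.18 under 20 kb to 0.333 beyond 80 kb, and on the right flank from 1.68 within 50 kb to 1.00 at 200 to 400 kb. The range under 20 kb takes in the pairs of numbers 3 and 6, whose NCC anchors are longer.

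The gain near the cluster came mostly from Hoxc6, Hoxc5 and Hoxc4. Under 100 kb from the window, the Hoxc6/Hoxc5 anchor had 88 right-flank read pairs in ESC and 222 in NCC, a ratio of 2.46 (1.92 to 3.19), and the Hoxc4 anchor had 57 and 117, a ratio of 2.01 (1.45 to 2.80). Beyond 100 kb their ratios were 1.34 and 1.43. The Hoxc11/Hoxc10 anchor had 55 and 70 read pairs under 100 kb, a ratio of 1.24. The strongest right-flank interaction of NCC joined Hoxc6/Hoxc5 to chr15:103055479-103064287, 47.1 kb away, with 47 read pairs. That of ESC joined the Hoxc9 anchor to chr15:103174349-103186647, 199 kb away, with 64.

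The named partners on the right were anchors nearest to Smug1, which encodes a uracil-DNA glycosylase of base excision repair, and Cbx5, which encodes the heterochromatin protein HP1 alpha. Anchors nearest to Smug1 took 559 read pairs in ESC and 849 in NCC, a ratio of 1.48 (1.33 to 1.65), and those nearest to Cbx5 took 249 and 234, a ratio of 0.918 (0.765 to 1.10). An anchor boundary between the genes moved between the cell types, and together they took 808 and 1083, a ratio of 1.31 (1.19 to 1.44). Anchors just outside the window that were nearest to Hoxc4 took 245 and 394, a ratio of 1.57 (1.34 to 1.85). Zfp385a, a zinc-finger gene farther out, had 92 and 101 in Hi-C, a ratio of 1.07 (0.801 to 1.44). On the left, anchors nearest to Calcoco1, a coiled-coil protein gene, had 427 and 468 in Hi-C, a ratio of 1.07 (0.937 to 1.22). In CTCF HiChIP the Calcoco1 count was 12 in ESC and 31 in NCC, a ratio of 2.97 (1.48 to 6.35).

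For single genes, the Hi-C totals follow where each anchor's midpoint fell, and this sets the limits of the values in the following paragraphs. The totals leave out read pairs inside a single anchor. With the exact test over all genes, 5 of the 8 HoxC genes tested in Hi-C were called, 2 higher and 3 lower in NCC, against 23.6% of all genes called. In FGFR1 HiChIP 3 of 9 were called, all lower, against 37.1% of all genes. In CTCF HiChIP 1 of 3 was called, higher in NCC, against 26.3% of all genes, and the other 6 had fewer than 50 read pairs in sum. The median log2 ratio of the HoxC genes tested was -0.09 in Hi-C, -0.15 in FGFR1 HiChIP and 0.29 in CTCF HiChIP, against -0.07, -0.20 and 0.01 over all genes tested. When a read pair counted for each gene body its anchor overlaps, 2 of the 9 genes were called in Hi-C, and Hoxc12, Hoxc8 and Hoxc5 turned direction.

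**Figure D5:**
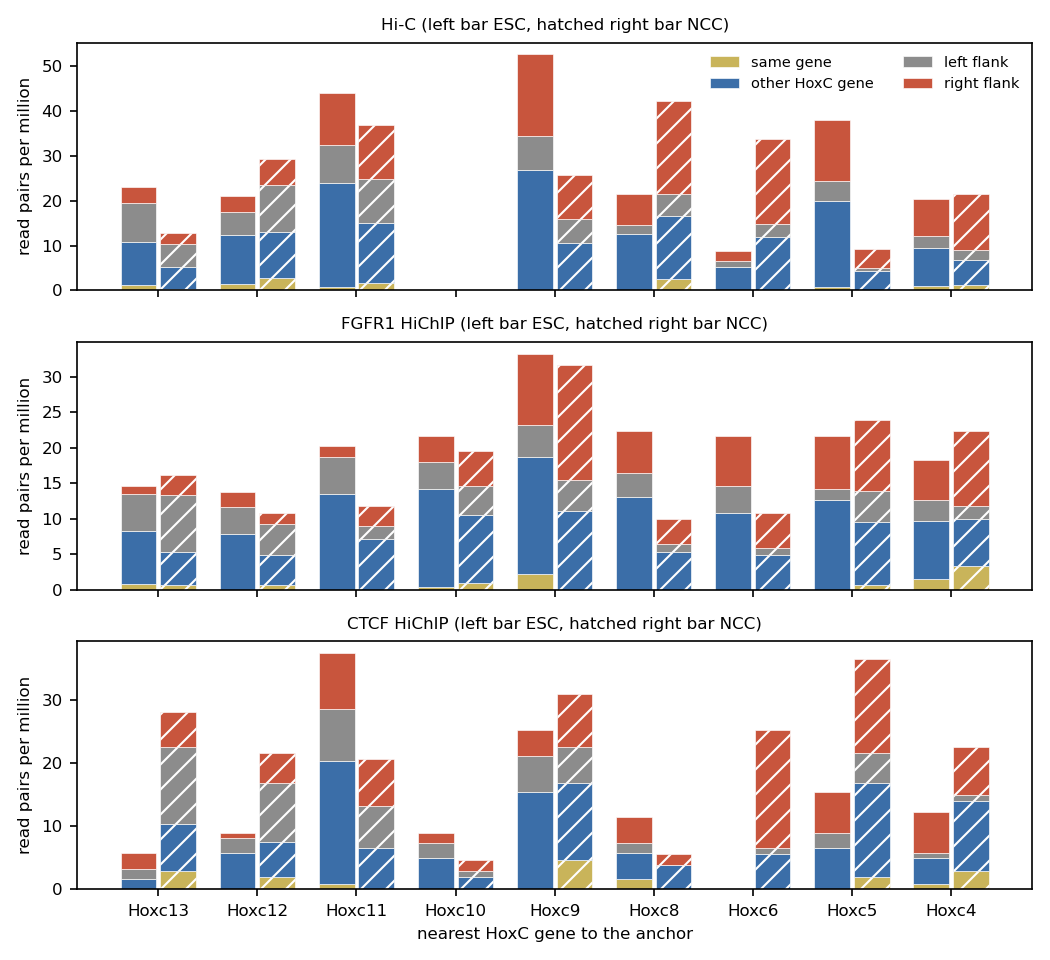
Read pairs per 1000000 of each HoxC gene in Hi-C (top), FGFR1 HiChIP (middle) and CTCF HiChIP (bottom), with ESC as plain and NCC as hatched bars from 0, split by partner into the same gene, other HoxC genes, the left flank and the right flank. In Hi-C the neighbours Hoxc9 and Hoxc8 trade levels between ESC and NCC, as do Hoxc6 and Hoxc5, and Hoxc10 has no bar because no Hi-C anchor has its midpoint nearest to it.

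Hoxc13, a gene at the 5′ end known for its part in hair and nail formation, had 480 Hi-C read pairs in ESC and 274 in NCC (log2 ratio -0.84, adjusted p = 3.33e-14, exact binomial test). Hoxc12, a posterior gene beside it, had 439 and 623 (log2 ratio 0.47, adjusted p = 5.44e-07, exact binomial test, under the fold required). The ESC anchor chr15:102930671-102932815 went to Hoxc13, and its longer NCC counterpart chr15:102930671-102936114 went to Hoxc12. As a sum in which this boundary does not matter, Hoxc13 and Hoxc12 had 877 and 847 read pairs, a ratio of 0.944 (0.858 to 1.04). Inside the cluster their ratio was 0.755 (0.653 to 0.872), to the left flank 1.14 (0.971 to 1.34), and to the right flank 1.12 (0.895 to 1.4).

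In FGFR1 HiChIP Hoxc13 had 39 and 52 read pairs and Hoxc12 had 37 and 35, and neither was called. In CTCF HiChIP Hoxc13 had 7 in ESC and 30 in NCC, and Hoxc12 had 11 and 23, too few for the test over all genes. Their joint CTCF count went from 17 to 48, a ratio of 3.25 (1.83 to 6.03), with 5 and 23 read pairs to the left flank, a ratio of 5.29 (1.97 to 17.8). These 5′ genes were the only group of neighbours whose CTCF interval for the left flank lay above 1. Of their 4 NCC anchors, 2 have no CTCF anchor in ESC, with 18 read pairs at Hoxc13 and 7 at Hoxc12, and the joined anchors held by both tables had ratios of 2.44 (1.00 to 6.54) and 1.84 (0.927 to 3.77).

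Hoxc11 and Hoxc10, which pattern the lumbar region and hind limb, share their main Hi-C anchor, and its midpoint lies nearer to Hoxc11. Hoxc11 therefore held 918 Hi-C read pairs in ESC and 786 in NCC for both genes (log2 ratio -0.26, adjusted p = 0.000604, exact binomial test, under the fold required), and Hoxc10 held 0 in both. Inside the cluster the counts were 497 and 319, a ratio of 0.627 (0.543 to 0.723). To the left flank they were 178 and 212, a ratio of 1.16 (0.949 to 1.43), and to the right flank 243 and 255, a ratio of 1.03 (0.857 to 1.23). FGFR1 HiChIP, with its shorter anchors, separated the genes. Hoxc11 had 54 and 38 read pairs (log2 ratio -0.78, adjusted p = 0.0289, exact binomial test), and Hoxc10 had 58 and 63 (log2 ratio -0.15, adjusted p = 0.689). The Hoxc11 call was lost for pairs at least 10 kb apart (adjusted p = 0.108, exact binomial test) and with scores of at least 2 (adjusted p = 0.0659), and the sum of both genes had a ratio of 0.755 (0.563 to 1.01).

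In CTCF HiChIP Hoxc11 was the highest HoxC gene in ESC, with 46 read pairs, and had 22 in NCC (log2 ratio -0.86, adjusted p = 0.0669, exact binomial test, not called). With Hoxc10 added, which had 11 and 5, the ratio was 0.586 (0.354 to 0.949). The sum takes in 2 anchors called only in ESC, with 14 and 16 read pairs, and the Hoxc11 anchor held by both tables had 38 and 25, a ratio of 0.757 with an interval that spans 1 (0.438 to 1.29). Inside the cluster the CTCF counts of both genes were 27 and 9, a ratio of 0.383 (0.159 to 0.840). This was the only gene or pair of neighbours whose CTCF interval for all contacts lay below 1.

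Hoxc9 and Hoxc8, which set the identity of spinal motor neurons at the thoracic and lower neck levels, share the long ESC anchor that was called as 2 anchors in NCC. Hoxc9 had 1096 Hi-C read pairs in ESC and 550 in NCC (log2 ratio -1.03, adjusted p = 3.11e-43, exact binomial test), and Hoxc8 had 447 and 901 (log2 ratio 0.98, adjusted p = 5.09e-32). Those calls have opposite signs and follow the cut in the anchor, since together the genes had 1452 and 1367, a ratio of 0.920 (0.854 to 0.991). Inside the cluster the pair had 727 and 496, a ratio of 0.667 (0.593 to 0.748), and to the right flank 521 and 652, a ratio of 1.22 (1.09 to 1.37).

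In FGFR1 HiChIP Hoxc9 had the most read pairs of the 9 genes in both cell types, 89 and 102 (log2 ratio -0.07, adjusted p = 0.845, exact binomial test). Counted with those inside a single anchor, Hoxc9 read pairs had a log2 ratio of 0.32. Hoxc8 had 60 and 32 (log2 ratio -1.18, adjusted p = 0.000656, exact binomial test). With anchors at start sites only, Hoxc8 had 46 and 102 read pairs and was called in the other direction (log2 ratio 0.88, adjusted p = 0.00292, exact binomial test), so its direction depends on the assignment in this assay too. In CTCF HiChIP Hoxc9 had 31 and 33 (adjusted p = 0.625, exact binomial test), and Hoxc8 had 14 and 6. The right-flank part of the Hoxc9 FGFR1 count was 27 in ESC and 52 in NCC, while its part to other HoxC genes was 44 and 36.

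Hoxc6 and Hoxc5, genes of the neck and upper thorax, share the anchor whose midpoint lies nearer to Hoxc5 in ESC and nearer to Hoxc6 in NCC, where it begins 0.653 kb earlier. Hoxc6 thus had 184 Hi-C read pairs in ESC and 720 in NCC (log2 ratio 1.93, adjusted p = 4.71e-71, exact binomial test), and Hoxc5 had 792 and 196 (log2 ratio -2.05, adjusted p = 1.52e-86). Together they had 944 and 877, a ratio of 0.908 (0.827 to 0.996). The 2 calls of opposite sign therefore belong to the assignment and not to the sum. Inside the cluster the pair had 493 and 308, a ratio of 0.610 (0.528 to 0.705), to the left flank 118 and 74, a ratio of 0.613 (0.452 to 0.826), and to the right flank 333 and 495, a ratio of 1.45 (1.26 to 1.67). It was the only pair of neighbours with a left-flank interval below 1 in Hi-C. These sums take in the ESC anchor chr15:103004259-103006894, where NCC has no anchor. It held 110 read pairs inside the cluster, 24 to the left flank and 50 to the right flank. The joined anchor over both genes had 71 and 61 left-flank read pairs, a ratio of 0.839 with an interval that spans 1 (0.586 to 1.2). Over all its contacts, with read pairs inside it counted, its ratio was 1.12 (1.02 to 1.23).

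FGFR1 HiChIP counted 58 and 35 read pairs for Hoxc6 (log2 ratio -0.999, adjusted p = 0.00399, exact binomial test) and 58 and 77 for Hoxc5 (log2 ratio 0.14, adjusted p = 0.706). In CTCF HiChIP Hoxc5 had 19 and 39 (log2 ratio 1.24, adjusted p = 0.012, exact binomial test), the only HoxC gene called in that assay. The call was lost for pairs at least 10 kb apart (adjusted p = 0.0707, exact binomial test) and with read pairs inside 1 anchor counted (log2 ratio 0.77, adjusted p = 0.0847). Hoxc6 had 0 in ESC and 27 in NCC, at least 10.4-fold higher against a floor of 3 counts in the library, while the exact 95% interval of the ratio begins at 7.86. That 0 holds for the nearest-gene rule, because the ESC anchor over the end of Hoxc6 went to Hoxc5. The CTCF count of both genes together was 19 in ESC and 64 in NCC, a ratio of 3.88 (2.29 to 6.85), with 8 and 36 read pairs to the right flank, a ratio of 5.18 (2.37 to 12.9). These sums take in 2 anchors called only in NCC, the one at the Hoxc6 start site with 31 read pairs and one at chr15:103022731-103024231 with 19. The joined anchor of Hoxc6 and Hoxc5 that both CTCF tables hold had 29 and 26 read pairs, a ratio of 1.03 (0.584 to 1.81), so the higher count was seen only with the anchors of 1 library.

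Hoxc4, the gene at the 3′ end of the cluster, the end that answers retinoic acid first, had anchors of its own in every table. In Hi-C it had 423 read pairs in ESC and 460 in NCC (log2 ratio 0.09, adjusted p = 0.456, exact binomial test). Its contacts inside the cluster were 195 and 145, a ratio of 0.726 (0.582 to 0.905), and those to the right flank 171 and 268, a ratio of 1.53 (1.26 to 1.87). Hoxc4 thus showed the division of the cluster within a single gene whose total was level. In FGFR1 HiChIP it had 49 and 72 (log2 ratio 0.28, adjusted p = 0.43, exact binomial test), with 15 and 34 to the right flank, a ratio of 1.88 (0.996 to 3.71). Its FGFR1 contacts inside the cluster had a ratio of 1.02 (0.589 to 1.78), where the other 4 groups of genes lay between 0.528 and 0.632. In CTCF HiChIP it had 15 and 24, a ratio of 1.84 (0.927 to 3.77).

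Among contacts outside the cluster, the share that went to the right was higher toward the Hoxc4 end. In ESC Hi-C it was 29.6% for Hoxc13, 41.7% for Hoxc12, 57.7% for Hoxc11, 70.4% for Hoxc9, 75.9% for Hoxc8, 67.6% for Hoxc6, 75.1% for Hoxc5 and 75.0% for Hoxc4. In NCC the 3′ genes pointed more to the right, though the ESC share of Hoxc6 comes from number 10 alone, which has no anchor in NCC. Hoxc6 had 86.9% (interval 83.5 to 89.8, against 55.7 to 78.0 in ESC), Hoxc5 87.5% (79.6 to 93.2, against 70.4 to 79.4) and Hoxc4 85.1% (80.7 to 88.8, against 68.9 to 80.5). Hoxc13, Hoxc12, Hoxc11, Hoxc9 and Hoxc8 had 31.9%, 35.2%, 54.6%, 64.9% and 80.8% in NCC.

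Levels of different genes were compared per 1000000 read pairs of the table and per kb of the stretch of window nearest to each gene, with exact Poisson intervals. By this measure Hoxc9 was highest in ESC Hi-C, at 4.06 per kb (3.82 to 4.30). Its read pairs come from the 20.85 kb anchor that also reaches Hoxc10 and Hoxc8, while the level divides them by 13.0 kb. Per kb of anchor, it held 76.2 ends, against 122 in the ESC anchor over Hoxc6 and Hoxc5. Hoxc11 at 2.94 and Hoxc5 at 2.93 did not differ beyond their intervals, and neither did Hoxc12, Hoxc8, Hoxc4 and Hoxc13, which lay between 1.44 and 1.56. Hoxc6 was at 0.805. In NCC Hi-C Hoxc6 at 3.08 and Hoxc8 at 2.92 led with overlapping intervals, followed by Hoxc11 at 2.46, Hoxc12 at 2.17, Hoxc9 at 1.99, Hoxc4 at 1.54, Hoxc13 at 0.805 and Hoxc5 at 0.709. Of neighbours in this order, Hoxc11 and Hoxc12, Hoxc12 and Hoxc9, and Hoxc13 and Hoxc5 had overlapping intervals. Both Hi-C orders follow where the midpoints of shared anchors fell, and the intervals do not cover this.

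The FGFR1 order was flatter. Hoxc9 led in ESC at 2.56 per kb (2.05 to 3.14) and in NCC at 2.43 (1.98 to 2.95), and the lowest were Hoxc13 at 0.910 in ESC and Hoxc8 at 0.683 (0.467 to 0.964) in NCC. All intervals of direct neighbours in both orders overlapped. In CTCF HiChIP Hoxc11 led in ESC at 2.5 (1.83 to 3.34) with Hoxc9 next at 1.94, and in NCC Hoxc5 led at 2.82 (2.0 to 3.85), followed by Hoxc9 at 2.38 and Hoxc6 at 2.30. The CTCF lead thus lay at Hoxc11 in ESC and at Hoxc5 in NCC, with intervals that overlap those of the next genes.

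The test named in the study's methods, a paired t-test over the 1 kb bins of each pair of 10 kb bins with Bonferroni adjustment, was run over the whole region. Of 91 Hi-C bin pairs inside the HoxC window, 49 were called, 9 higher and 40 lower in NCC, where 36.4% of all pairs in the region were called. On the right flank 271 of 597 were called, 151 higher and 120 lower, and on the left flank 409 of 882, 188 higher and 221 lower. In FGFR1 HiChIP 146 of 518 pairs with a HoxC bin were called, against 24.6% in the region, and on the right flank 47 were higher and 20 lower. In CTCF HiChIP 40 of 245 were called, against 16.0%, 21 of them higher. An anchor that spans several 1 kb bins enters this test several times. When each anchor was placed in the bin of its midpoint it filled only 1 of the 1 kb bins, and the t-test gave 0 pairs in all 3 assays even at an unadjusted p under 0.05, so this placing says nothing about the contacts.

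The other Hox clusters were used to see where HoxC differs. In Hi-C the contacts inside the cluster had ratios of 0.807 for HoxA, 0.734 for HoxB and 0.652 for HoxD, and the HoxC ratio differed from none of them beyond the interval, at 0.906 times (0.805 to 1.02), 0.995 times (0.896 to 1.11) and 1.12 times (0.972 to 1.29) theirs. On the right flank the HoxC ratio was 1.62 times that of HoxA (1.44 to 1.83) and within counting error of HoxB and HoxD. All of these clusters are drawn by chromosome coordinate, so left and right need not be the same end of a cluster. In FGFR1 HiChIP the HoxC ratio for contacts inside the cluster was 0.473 times that of HoxA (0.315 to 0.709). Against HoxD it was 1.59 times, with an interval that spans 1 (0.984 to 2.58). In CTCF HiChIP it was 1.64 times that of HoxA, with an interval that spans 1 (0.93 to 2.89), and 4.24 times that of HoxD (2.06 to 8.73). With read pairs inside a single anchor added, the FGFR1 ratio was 0.654 times that of HoxA (0.481 to 0.889) and 2.08 times that of HoxD (1.5 to 2.89). The CTCF ratio was then 1.80 times that of HoxA (1.18 to 2.74) and 3.23 times that of HoxD (2.0 to 5.23).

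Over the 30 genes of the other clusters, tested by the same rule as the HoxC genes, 13 of 29 were called in Hi-C, 5 higher and 8 lower in NCC, where 23.6% of all genes were called. In 5 of these calls 1 library was at 0 by the nearest-gene rule. In FGFR1 HiChIP 9 of 19 were called (37.1% of all genes), 8 of them lower, with a median log2 ratio of -0.62 against -0.20 over all genes. In CTCF HiChIP 2 of 8 were called (26.3% of all genes), both higher. Of 17 genes for Hox cofactors and the retinoic acid pathway, 3 of 17 were called in Hi-C, 6 of 15 in FGFR1 HiChIP and 3 of 10 in CTCF HiChIP, all 3 of the last higher in NCC, against the same shares of 23.6%, 37.1% and 26.3% of all genes. Among them was Rarb, the gene of a retinoic acid receptor, with 93 and 363 FGFR1 read pairs (log2 ratio 1.69) and 22 and 106 CTCF read pairs (log2 ratio 2.47).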

How the data were processed

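Hi-C and FGFR1 and CTCF HiChIP were done by the authors in ESC and NCC. The deposited values count the read pairs that join each 2 anchors, made by the authors with HiC-Pro on mm10 and with hichipper at default settings, which called anchors in each table on its own, and the 2 replicates of each of the 6 tables were merged. All columns of values belonged to known samples, and 0 were left out. Depth ranged from 1065662 to 21279750 read pairs per table. Coordinates were 1-based, and anchors were checked to start and end at GATC sites of GRCm38.

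Counts were scaled to the table total. NCC was compared with ESC by a two-sided exact binomial test with Benjamini-Hochberg adjustment over all genes, or all joined anchors, with at least 50 read pairs in sum (called: adjusted p under 0.05 and a ratio of at least 1.5), and by exact 95% intervals elsewhere. Ratios of ratios had Wald intervals. The methods' paired t-test ran over 10 kb bin pairs. Genes came from RefSeq. The text names the 9 HoxC genes, the leading anchors, the flank genes nearest to the most read pairs, called Hox and retinoic acid genes, and the 3 genes most like the HoxC median. The members and lists were chosen with earlier results of these data known. Alternatives covered scaling, minimum score, assignment, leading anchors, distance, anchor-internal pairs, window, threshold and bin placing. The steps were tested on simulated data. Python 3.11.15, NumPy 2.4.6, SciPy 1.17.1, pandas 2.3.3, Matplotlib 3.10.9 and samtools 1.23.1 were used.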

Additional observations from a re-analysis of the deposited data

Results flagged for a closer look

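The scaled ratio of NCC over ESC for contacts within the HoxC cluster was 1.95 times (1.29 to 2.95) as high in CTCF HiChIP as in Hi-C, by the Wald interval of the difference between the 2 log ratios. For contacts to the right flank the CTCF ratio was 1.60 times (1.10 to 2.34) the Hi-C ratio by the same test. With only joined anchors held by both tables, the CTCF ratio was 1.06 (0.584 to 1.92) within the cluster and 1.52 (0.954 to 2.45) to the right flank, against 0.752 and 1.32 in Hi-C, and the difference was not tested there.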

How the results depend on the processing

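No paired analysis was possible because the 2 replicates of each table were merged before deposit, and for the same reason leaving out a replicate was not possible. Depth limits CTCF HiChIP most, where only 3 HoxC genes reached 50 read pairs, and long anchors shared by neighbours limit single genes in Hi-C. In the values below the cause of a change was not tested, and the alternatives with gene-body overlap and joined anchors were chosen after seeing the data. Of 144 alternative values for counts and contact classes, 104 were labelled as unchanged. That label asks whether a contact ratio lies inside the main interval, or a count near the main count. It sets no condition on where the new interval lies. The FGFR1 right-flank ratio for pairs at least 10 kb apart kept the label at 1.26 (0.993 to 1.6). Of 158 values for single genes, 122 kept their direction and their side of the threshold.

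The 5 Hi-C genes called became 3 with a ratio of at least 2, 3 with anchors at start sites only and 2 with every gene body overlapped. The 3 FGFR1 genes became 1 with a ratio of at least 2 and 5 at start sites. The 1 CTCF gene became 2 when scaled to pairs under 1 Mb or with the nearest start site, and 0 with scores of at least 2, at start sites, without the 3 leading anchors, at 10 kb or more apart, with anchor-internal pairs counted and with gene-body overlap, where 0 to 4 genes reached the read pairs needed for the exact test.

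With scores of at least 2, left and right flank ratios were 1.14 and 1.37 in Hi-C, 2.41 and 1.80 in FGFR1, and 8.78 and 22.7 in CTCF HiChIP, the last on 2 to 31 read pairs. At start sites only, they were 1.14 and 1.4 in Hi-C. Without the 3 leading anchors, Hi-C had 1.11 within the cluster, 1.17 to the left and 1.63 to the right, and FGFR1 0.982 to the right. These leading anchors are not the same stretches in ESC and NCC. With joined anchors FGFR1 had 0.469 within the cluster. With joined anchors but without the 3 strongest, the ratios within the cluster were 0.934 in Hi-C, 0.461 in FGFR1 and 2.30 in CTCF HiChIP, with 0.677 to the left in FGFR1 and 1.21 to the right in CTCF HiChIP.

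Bin pairs called were 1277, 387 and 193 in Hi-C, FGFR1 and CTCF HiChIP with Benjamini-Hochberg adjustment in place of 729, 146 and 40, and 438, 67 and 22 with scores of at least 2. With anchors at their midpoint they were 0 in each, also at an unadjusted p under 0.05, because an anchor then fills a single 1 kb bin, so these say nothing about stability.

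Single genes changed sign as follows, as log2 ratios. In Hi-C with the nearest start site Hoxc11 was at 0.72 and Hoxc5 at 0.11, at start sites only Hoxc8 was at -0.95 and Hoxc5 at 0.11, without the 3 leading anchors Hoxc11 was at 0.73 and Hoxc5 at 0.26, and with gene-body overlap Hoxc12 was at -0.21, Hoxc8 at -0.95 and Hoxc5 at 0.11. In FGFR1 HiChIP Hoxc9 was at 0.56 with scores of at least 2, at 0.99 with the nearest start site, at 1.91 at start sites only, at 0.037 for pairs 10 kb or more apart and at 0.32 with anchor-internal pairs. With those pairs Hoxc13 was at -0.070 and Hoxc12 at 0.084. Hoxc10 was at 0.34 and Hoxc8 at 0.88 at start sites only, Hoxc5 was at -1.09 without the 3 leading anchors, and with gene-body overlap Hoxc10 was at 0.34 and Hoxc4 at -0.27.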

Other observations

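HoxC anchors also had contacts to other chromosomes, which enter no comparison above. In ESC they numbered 701 in Hi-C, 62 in FGFR1 HiChIP and 38 in CTCF HiChIP, and in NCC they numbered 802, 86 and 29 read pairs.

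Over 7578 genes with values in all 6 tables, the genes whose levels scaled to the table total and per kb lay nearest to the median of the 9 HoxC genes were Aym1, Zfp36l1 and Arhgap23, at Euclidean distances of 0.434, 0.437 and 0.529 over 6 log2 values, with a pseudocount of 0.5.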
